A study of Mus musculus with 8 samples.

Results

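This report describes 7 mouse genes for costimulatory and checkpoint molecules of the cell surface, Cd83, Cd274, Pdcd1lg2, Cd80, Cd86, Cd40 and Icosl, in J774.1 cells treated with isorhamnetin, tamarixetin or Torin1. The members were chosen by gene symbol and are read by 12 probes on the array. Of the 7, the 4 genes Cd83, Cd274, Cd80 and Cd40 passed the filter on dim probes and were tested among 21528 genes in all. All 4 were well above background on all 8 arrays, so none passed only through a group in which it was high. Pdcd1lg2, Cd86 and Icosl did not pass. Of the 21528 genes tested, 12937 had a gene symbol. The other 8591 had none and are counted as genes under their accession or probe name.

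J774.1 is an established macrophage-like cell line of BALB/c mouse origin, and RNA from whole cultures was labelled with Cy3 and read on 8 one-colour Agilent arrays. There were 4 groups of 2 biological replicates: control cells (Ctrl; the sources here do not say whether they received vehicle, or for how long they were kept), isorhamnetin at 10 µM (IR), tamarixetin at 10 µM (TAM) and Torin1 at 1 µM (Torin). The compounds were given for 6 h. Isorhamnetin and tamarixetin are isomers, O-methylated forms of the flavonol quercetin that carry the methyl group on different neighbouring hydroxyl groups, and Torin1 inhibits the kinase mTOR. All groups are the same cell line with no genetic change named, so the replicates carry the variation between cultures of 1 line.

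T cells need a second signal beside the antigen, and the members are the molecules through which an antigen-presenting cell gives or withholds it. CD80 and CD86 bind the activating receptor CD28 and the inhibitory receptor CTLA-4 on T cells, and ICOSL binds ICOS. PD-L1 (encoded by Cd274) and PD-L2 (Pdcd1lg2) bind the inhibitory receptor PD-1. CD40 receives a signal from the CD40 ligand of T cells and activates NF-kB. CD83 is a marker of mature dendritic cells and stabilises MHC class II and CD86 at the cell surface. In macrophages most of these genes respond to inflammatory signals, Cd274 in particular to interferons.

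Levels are log2 processed signals after subtraction of the array's own 75th percentile, so that 0 is that percentile, and each level belongs to its own probe and is not set against that of another probe. That percentile lay between signals of 318 and 403 on the 8 arrays, 43.9% to 54.1% of spots were well above background, and replicate arrays correlated at 0.992 to 0.997 over probes. Ctrl and IR arrays lay side by side in 1 slide row and TAM and Torin arrays in the other, with each group in its own columns, so position on the slide and group cannot be told apart in any comparison. Of 12 macrophage marker genes on the array, 10 were well above background on all 8 arrays and Mertk and C1qa on none. Their summed signal, relative to the 75th percentile, was 726 to 740 in Ctrl, 659 to 724 in IR, 681 to 688 in TAM and 829 to 840 in Torin. Of 8 dendritic cell markers only Siglech was above background on all 8 arrays, while Flt3, Xcr1, Clec9a and Ccr7 were on none. The summed signal of this list was 204 to 217 in Ctrl, 197 to 247 in IR, 205 to 238 in TAM and 218 to 234 in Torin. It is almost wholly that of Siglech, at a mean level of 7.72 in Ctrl and 7.82 with Torin, since the group means of the other markers all lay below the 75th percentile. The T cell list had 3 of 7 markers above background on all 8 arrays (Cd3e, Cd4 and Lck) and a summed signal of 7.10 to 7.78 in Ctrl, 5.89 to 6.67 in IR, 5.96 to 6.48 in TAM and 4.45 to 4.92 in Torin. On all 8 arrays 1 of 6 B cell, 2 of 5 neutrophil and 0 of 6 fibroblast markers were above background, with summed signals of at most 2.19, 3.14 and 0.34 on any array. The part of these levels in the results was not tested.

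Cd83 was far higher with Torin than in any other group. Its level was 1.09 and 0.99 on the Ctrl arrays, 0.69 and 0.86 with IR, 0.97 and 0.92 with TAM, and 5.06 and 5.13 with Torin. In processed signal, the Ctrl arrays read 784 and 631 and the Torin arrays 12300 and 12500. The Torin arrays stood far above the other 6, among which Ctrl lay highest, then TAM, then IR, without overlap but within a range narrower than 1 log2 unit. Torin against Ctrl, Cd83 rose by 4.05 ± 0.08 (log2, SE, n = 2 arrays per group; 95% interval 3.86 to 4.25), a 16.6-fold change (limma, adjusted p = 1.41e-05), and it ranked 29 of 21528 genes by the size of its rise. Neither flavonol moved it past the threshold. IR against Ctrl, the difference was -0.27 (-0.46 to -0.07, adjusted p = 0.21), and TAM against Ctrl, it was -0.10 (-0.29 to 0.10, adjusted p = 0.596).

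**Figure D1:**
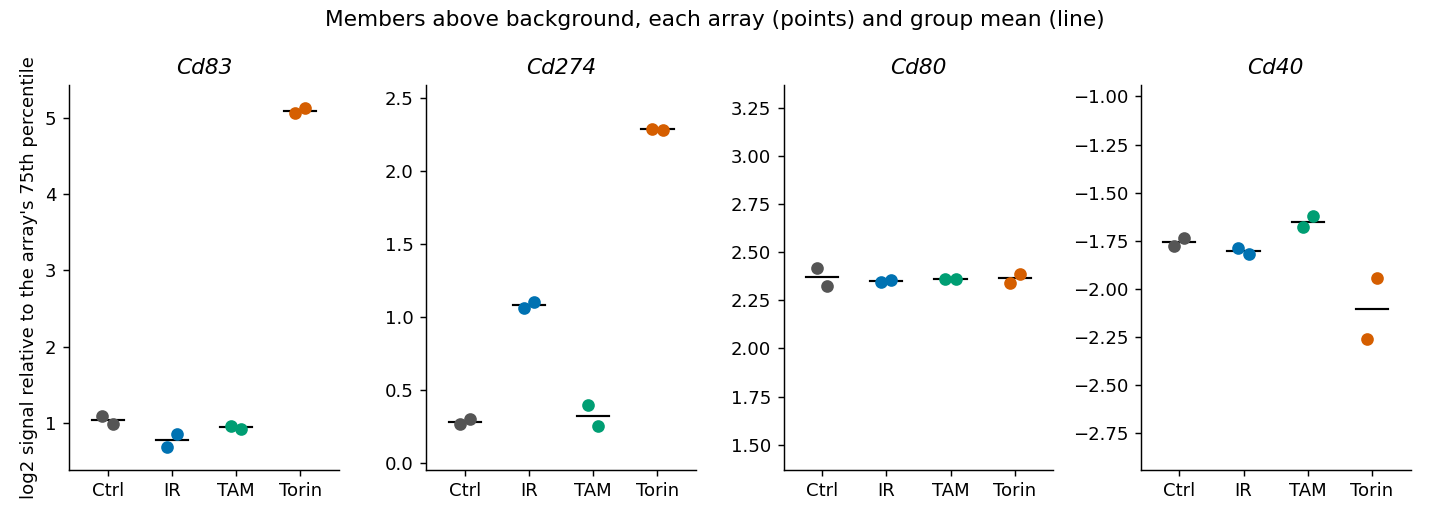
The log2 level is plotted for the 4 members above background, with each array as a point and each group mean as a line; the panels differ in axis range, and no panel spans less than 2 log2 units. Cd83 and Cd274 stand highest on both Torin arrays, Cd274 also lies at 1.06 and 1.11 with IR, and Cd80 lies between 2.32 and 2.42 on all 8 arrays.

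Cd274, the gene for PD-L1, was higher with Torin and, by a smaller amount, with IR, but not with the isomer TAM. Its level was 0.26 and 0.30 on the Ctrl arrays, 1.06 and 1.11 with IR, 0.39 and 0.25 with TAM, and 2.29 and 2.28 with Torin. The TAM arrays lay on either side of the Ctrl arrays, both IR arrays lay above all of these, and both Torin arrays lay above IR. Torin against Ctrl, Cd274 rose by 2.00 ± 0.06 (1.84 to 2.16), a 4.01-fold change (limma, adjusted p = 4.42e-05). IR against Ctrl, it rose by 0.80 ± 0.06 (0.64 to 0.96), a 1.74-fold change (adjusted p = 0.0174). TAM against Ctrl, the difference was 0.04 (-0.12 to 0.20, adjusted p = 0.8). These comparisons share the Ctrl arrays, and Torin1 was given at another dose than the flavonols, so their values stand side by side only.

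The call of Cd274 with IR depended on the fit. It was lost without Ctrl replicate 1 (adjusted p = 0.114) or 2 (0.118), without IR replicate 1 (0.1) or 2 (0.12), and without Torin replicate 1 or 2 (0.0817 each), where the value stayed between 0.78 and 0.82 and the fit had fewer residual degrees of freedom. It was also lost with median scaling (0.127), with no filter (0.132), in a fit of only the groups compared (0.125) and with a replicate block (0.074).

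The start-site region of Cd274 is shown because Cd274 moved with both IR and Torin, and that of Cd80 because its main probe did not. Both are RefSeq sequences of GRCm38.p6, plus strand, from 250 bases before to 50 after the annotated start, in lower case with motif matches in capitals.
Cd274, chr19:29367188-29367487: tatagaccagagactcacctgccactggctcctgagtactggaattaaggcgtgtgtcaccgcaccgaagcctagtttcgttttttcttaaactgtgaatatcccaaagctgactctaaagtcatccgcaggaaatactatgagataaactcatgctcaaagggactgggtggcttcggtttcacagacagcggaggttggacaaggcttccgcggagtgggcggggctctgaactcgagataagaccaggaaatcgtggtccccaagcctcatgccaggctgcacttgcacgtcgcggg
Cd80, chr16:38458683-38458982: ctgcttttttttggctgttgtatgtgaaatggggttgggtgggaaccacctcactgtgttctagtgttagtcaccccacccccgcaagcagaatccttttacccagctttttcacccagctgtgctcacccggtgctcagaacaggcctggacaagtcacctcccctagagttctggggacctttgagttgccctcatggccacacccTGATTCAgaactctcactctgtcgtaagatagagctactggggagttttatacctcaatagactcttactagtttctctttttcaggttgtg
Searched on both strands were the NF-kB motif, the interferon-stimulated response element (ISRE), the STAT motif TTCNNNGAA, the FOXO motif TGTTTAC, the E-box CACGTG and the AP-1 motif TGANTCA. The Cd274 window held none of the 6, and the Cd80 window held the AP-1 letters once, at 42 bases before the start. Of 32851 promoters of the same length, 7.81% held the AP-1 motif, 8.46% the NF-kB motif, 8.30% the STAT motif, 7.15% the E-box, 3.65% the FOXO motif and 3.44% the ISRE. The windows of Pdcd1lg2 and Icosl held the NF-kB letters once each, at 244 and 111 bases before the start. These matches describe letters in a window, and no match says only that the letters are not in it. Cd274 and Pdcd1lg2 are neighbouring protein-coding genes in the RefSeq annotation of chromosome 19, both on the plus strand.

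Cd80, whose product binds CD28 and CTLA-4, had nearly the same level in all groups on the brightest of its 3 probes. That probe read 2.42 and 2.32 on the Ctrl arrays, 2.35 and 2.36 with IR, 2.36 and 2.36 with TAM, and 2.34 and 2.39 with Torin. Every treated array lay between the Ctrl arrays. The differences from Ctrl were -0.02 with IR (-0.16 to 0.12, adjusted p = 0.91), -0.01 with TAM (-0.15 to 0.13, adjusted p = 0.947) and -0.01 with Torin (-0.14 to 0.13, adjusted p = 0.937). On this probe, and with the scaling used here only, each interval excludes a change of more than 0.16 log2 units in either direction. With Torin the value was -0.18 under median scaling and 0.13 with a 75th percentile over the probes above background on all 8 arrays, called in neither. The sign of these small values turned under several settings. The other Cd80 probes, dimmer ones, did not all follow. In a fit over all 27562 probes kept, 1 of them rose by 0.23 ± 0.07 Torin against Ctrl (adjusted p = 0.0457 over probes) and had -0.30 with IR (adjusted p = 0.177), from levels of -1.11 and -0.96 on the Ctrl arrays, -1.30 and -1.37 with IR, -1.09 and -1.18 with TAM, and -0.80 on both Torin arrays. The remaining probe had -0.09 with Torin (adjusted p = 0.625) and -0.46 with IR (adjusted p = 0.243). The probes of Cd80 therefore disagreed in size, and with Torin also in sign. With IR and with TAM all 3 probes had negative values in this fit, and none was called. The IR intervals of the dimmer probes lay below 0, at -0.48 to -0.12 and -0.80 to -0.12.

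Cd40, the receptor through which T cells activate antigen-presenting cells, had a slightly lower level with Torin. Its level was -1.78 and -1.74 on the Ctrl arrays, -1.79 and -1.82 with IR, -1.68 and -1.62 with TAM, and -2.26 and -1.95 with Torin. Both Torin arrays lay below all others, and they differed from each other by about as much as they differed from Ctrl. Torin against Ctrl, the difference was -0.35 ± 0.11 (-0.61 to -0.08; limma, adjusted p = 0.0403), against a median of -0.10 over all genes. This call was not firm: it was lost in 13 of 22 alternatives, among them leaving out any array but Torin replicate 2 (adjusted p = 0.0587 to 0.146), normexp background correction (-0.14, adjusted p = 0.169) and scaling to the probes that were bright on every array (-0.21, adjusted p = 0.158). Without Torin replicate 1 the value was -0.19, and without Torin replicate 2 it was -0.50 (adjusted p = 0.00922). Neither flavonol moved Cd40 past the threshold, at -0.05 with IR (-0.31 to 0.22, adjusted p = 0.863) and 0.10 with TAM (-0.16 to 0.37, adjusted p = 0.682).

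Of the 4 members tested, 2 rose and 1 fell Torin against Ctrl, where 19.3% of all genes tested were called higher and 30.1% lower. IR against Ctrl, 1 of 4 rose and 0 fell, where 0.418% of all genes were called higher and 0.125% lower. TAM against Ctrl, 0 of 4 were called at adjusted p or at an unadjusted p under 0.05 in limma, where 0.0697% of genes were called higher and 0.00929% lower. The split of all calls with Torin depended on the scaling: 39.0% of called genes were higher with the scaling used here, 22.8% with median scaling and 56.6% with a 75th percentile over the probes that were well above background on every array. The median log2 difference of all genes with Torin was -0.10, -0.27 and 0.04 in these analyses, and relative to it Cd83 and Cd274 stood higher in each. In whole cultures, fewer cells of a type and less RNA per cell cannot be told apart.

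**Figure D2:**
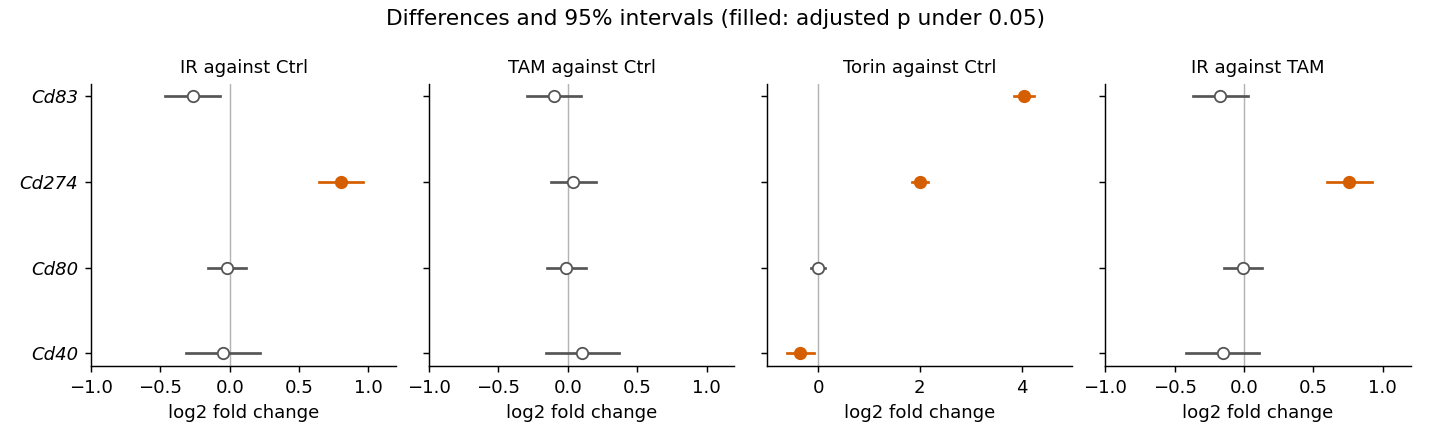
Points give the log2 fold change of each tested member in 4 comparisons and bars the 95% interval of the limma fit, with filled points for adjusted p under 0.05; the Torin panel has a wider axis. Cd274 is filled in 3 panels at 0.80, 2.00 and 0.76, Cd83 in the Torin panel at 4.05, and Cd80 lies next to 0 in all 4.

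The isomers, which share dose and time, differed in Cd274. This was the only pair of compounds compared. IR against TAM, Cd274 was higher by 0.76 ± 0.06 (0.60 to 0.92), a 1.69-fold difference (limma, adjusted p = 0.0145), with both IR arrays at 1.06 or more and both TAM arrays at 0.39 or less. Among all genes, 0.585% were called higher and 0.242% lower in IR than in TAM. The call was lost in 9 of 22 alternatives, with adjusted p of 0.0584 to 0.0979 without either array of Ctrl, IR or Torin, 0.196 in a fit of only the groups compared, 0.0776 with median scaling and 0.0641 with a replicate block, while its value stayed between 0.67 and 0.83. No difference was called for the other members: Cd83 had -0.17 (-0.37 to 0.03, adjusted p = 0.436), Cd80 -0.01 (-0.15 to 0.13, adjusted p = 0.977) and Cd40 -0.15 (-0.42 to 0.11, adjusted p = 0.607). These intervals bound the size of a difference and do not show that the isomers act alike on these genes.

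The other 3 members had too little signal to test. CD86, like CD80 a ligand of CD28, was read by 3 probes, none of them well above background on any array, and ICOSL by 2 probes, likewise on none. The Icosl probes read signals of 4.52 to 5.11 on the Ctrl arrays, 3.28 to 4.14 with IR, 8.95 to 10.1 with TAM and 5.91 to 7.91 with Torin. The lowest level that counted as well above background was also higher with TAM and lower with IR, at -3.95 and -3.90 in Ctrl, -4.16 and -4.62 with IR, -3.08 and -3.06 with TAM and -3.29 and -3.66 with Torin. A single Cd86 probe read 23.3 on both Torin arrays, against 5.66 and 5.27 in Ctrl, 4.67 and 7.43 with IR and 11.2 and 10.2 with TAM. It was still below that limit on both Torin arrays, at -3.99 and -3.94, and the other Cd86 probes read 5.81 to 11 there. With no filter, limma called Cd86 and Icosl with TAM and Cd86 with Torin, at levels not well above background, and no fold is given for them.

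Pdcd1lg2, the gene for PD-L2, was read by 1 probe, which was well above background on a single array. Its signal was 5.61 and 5.14 on the Ctrl arrays, 4.93 and 3.75 with IR, 32.8 and 435 with TAM, and 16.5 and 6.48 with Torin. Only TAM replicate 2 was well above background, and the TAM arrays differed from each other more than any other pair of replicates. The probe lies in spot row 10 of 384. On the TAM replicate 2 array 526 probes were above background there and on no other array, and 252 of these lay in the first 48 rows, which hold 12.8% of all probes. Such probes lay in those rows in 245 of 506 cases on TAM replicate 1, 255 of 555 and 193 of 632 on the Torin arrays, 21 of 338 and 105 of 1452 on the IR arrays, and 3 of 279 and 3 of 178 on the Ctrl arrays. The part of the position in the Pdcd1lg2 signal was not tested.

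**Figure D3:**
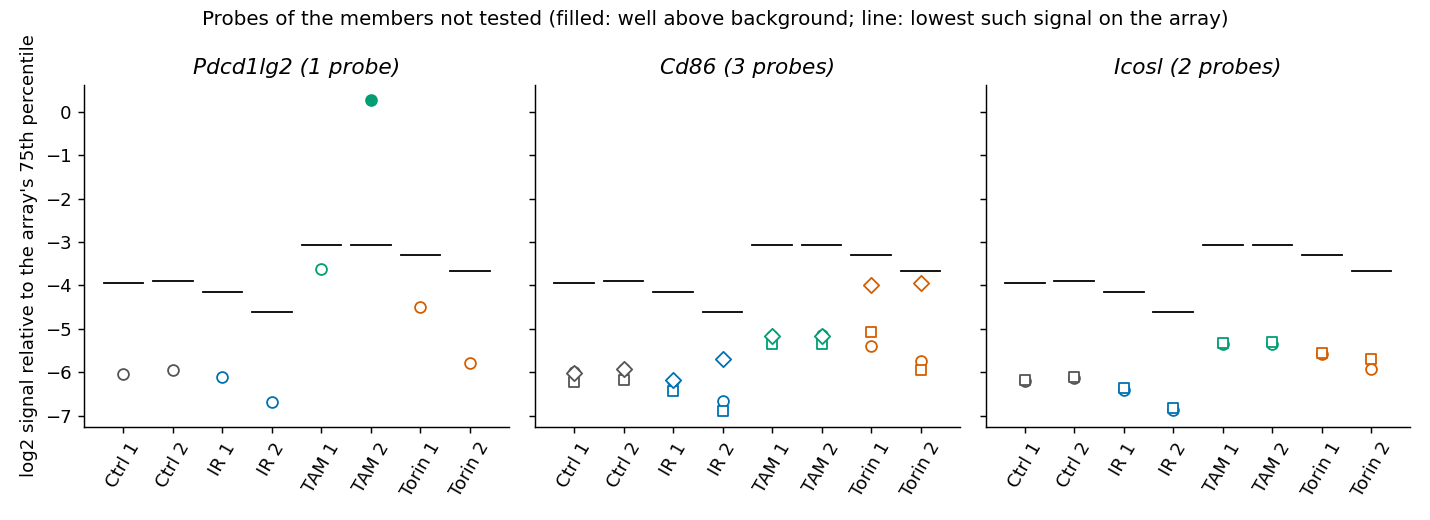
The log2 level of each probe of Pdcd1lg2, Cd86 and Icosl is plotted by array, with marker shapes for different probes, filled markers for signals well above background and a black line at the lowest such signal on that array. The only filled marker is Pdcd1lg2 on TAM replicate 2, at 0.26, and all Cd86 and Icosl probes lie under the line.

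Genes whose profile was most like that of a member were taken from 11237 genes with a symbol and signal above background on all 8 arrays, by the smallest root mean square difference of the centred log2 profile over the 8 arrays. Nearest to Cd83 were Ccl2, the chemokine that attracts monocytes (0.16), Ctsk, the lysosomal protease cathepsin K (0.31), and Rasgef1b, a Ras guanine nucleotide exchange factor (0.32). Ccl2 had levels of 0.98 and 0.96 in Ctrl, 0.90 and 0.93 with IR, 0.84 and 0.67 with TAM, and 5.30 and 5.25 with Torin. Unlike Cd83, Ctsk had a higher level with IR than in Ctrl, at -0.93 and -0.99 against -1.50 and -1.42. Nearest to Cd274 were Sqstm1, which encodes the selective autophagy receptor p62 (0.06), Rab3il1, which encodes an exchange factor for Rab GTPases (0.10), and Kctd12 (0.15). Sqstm1 had levels of 5.44 and 5.49 in Ctrl, 6.17 and 6.28 with IR, 5.48 and 5.41 with TAM, and 7.31 and 7.39 with Torin. Both Sqstm1 and Cd274 were higher on the IR arrays than on the Ctrl and TAM arrays and highest with Torin. Sqstm1 was picked for this likeness, so the shared order is no separate result. Nearest to Cd40 were Zfp984, 2610002M06Rik and Sh2d5 (0.04, 0.05 and 0.06), whose differences Torin against Ctrl were -0.27, -0.39 and -0.45. The likeness describes 8 arrays of 4 groups and has no test.

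**Figure D4:**
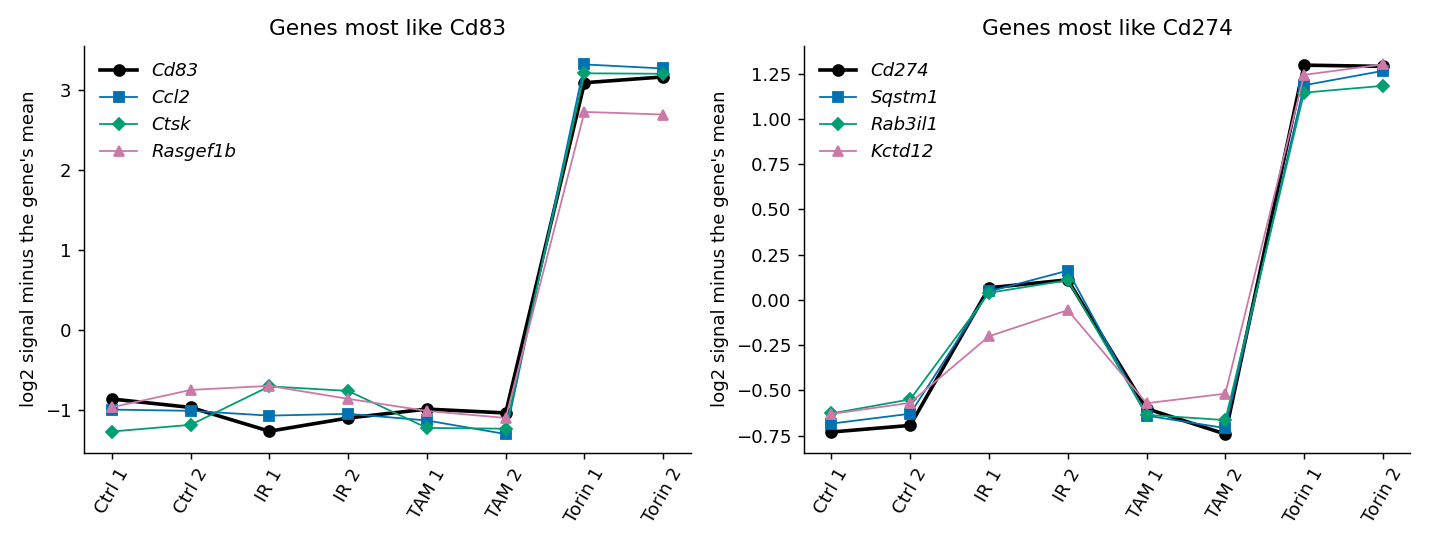
The log2 signal minus each gene's own mean over the 8 arrays is plotted by array for Cd83 and Cd274 with the 3 genes nearest to each; the lines only join the points of a gene, since arrays have no order. In the Cd83 panel the 4 genes are highest on the Torin arrays and Ctsk is also higher with IR than in Ctrl, while the Cd274 panel has a lower step on the IR arrays and a higher one on the Torin arrays.

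Genes of 10 related lists were counted beside the members, and with Torin they moved in both directions. Their counts stand beside 19.3% of all genes called higher and 30.1% called lower, and nothing particular to a list is read from them. Of the B7 and butyrophilin family beside the members, 4 of 11 listed genes were tested: 1 rose, 1 fell and 2 did not pass, with a median of -0.19. Cd276, the B7 family member B7-H3, fell from 3.04 and 3.07 in Ctrl to 1.65 and 1.52 with Torin, a change of -1.47 ± 0.08 (limma, adjusted p = 0.00017). Vsir, the checkpoint ligand VISTA, rose by 0.40 ± 0.06 (adjusted p = 0.004) but not past the threshold with median scaling (0.22, adjusted p = 0.143). Of the listed binding partners of the members, 2 of 6 were tested. Pdcd1, the gene for PD-1 itself, fell from -0.77 and -0.80 in Ctrl to -2.88 and -3.16 with Torin, a change of -2.23 ± 0.14 (adjusted p = 0.000229, and a value of -1.19 with normexp background correction). Its Torin levels were near the lowest level well above background on those arrays, -3.29 and -3.66, so the size of the fall is uncertain. The other tested gene, Rgmb, was not well above background on all 4 arrays and did not pass.

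In the TNF family of costimulatory ligands and receptors, 7 of 19 listed genes were tested: 3 rose and 4 fell with Torin, with a median of -0.26, and 1 of the 4, Tnfrsf14, was not well above background on all 4 arrays. Tnfrsf1b, the second TNF receptor, rose from -2.66 and -2.62 in Ctrl to 0.31 and 0.33, a change of 2.96 ± 0.10 (limma, adjusted p = 4.99e-05; 1.90 with normexp). Tnfsf9, the 4-1BB ligand, rose from 3.49 and 3.58 to 5.88 and 5.80, by 2.31 ± 0.07, and the death receptor gene Fas rose by 1.60 ± 0.07. The falling genes included Tnfsf13b, the B cell survival factor BAFF, at -0.69, and Tnfrsf4, the receptor OX40, at -0.62 (-0.38 with normexp). Tnfrsf1a had -0.26 and was not called in 7 of 22 alternatives, among them leaving out either Ctrl or either Torin array.

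Of 18 other inhibitory ligands and receptors tested, 7 rose and 7 fell with Torin, with a median of -0.06; Nectin2 and Cd24a, among the 7 that fell, were not well above background on all 4 arrays. Median scaling gave 3 that rose and 8 that fell, and scaling to the probes bright on every array 7 and 4. Lilrb4a, an inhibitory immunoglobulin-like receptor, rose from 4.72 and 4.76 in Ctrl to 6.88 and 6.71, by 2.06 ± 0.08, and Sirpa, the receptor for the signal CD47, rose from 1.78 and 1.87 to 3.52 and 3.53, by 1.70 ± 0.06. Lgals9, galectin-9, and Siglece, an inhibitory sialic acid receptor, fell by 0.93 and 0.72. Nectin3 had -0.57 (adjusted p = 0.0401) and was not called in 11 of 22 alternatives, among them leaving out any 1 Ctrl, TAM or Torin array. With IR, 0.418% of all genes were called higher and 0.125% lower, and of the 10 lists only Cd300a was called. Nothing particular to the lists is read from this count. Cd300a, an inhibitory receptor for lipids, had levels of 3.31 and 3.37 in Ctrl, 3.92 and 3.93 with IR, 3.23 and 3.34 with TAM, and 4.64 and 4.58 with Torin. It rose by 1.27 ± 0.06 with Torin (limma, adjusted p = 0.000123) and by 0.58 ± 0.06 with IR (adjusted p = 0.0341), and it was higher by 0.64 ± 0.06 in IR than in TAM (adjusted p = 0.0214). Leaving out any single array ended the IR call, as did 12 of 22 alternatives in all, and the call between the isomers was lost without any 1 Ctrl, IR or Torin array and in 8 of 22. With TAM, 0 genes of the 10 lists were called at adjusted p in limma, where 0.0697% of all genes were called higher and 0.00929% lower.

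The adhesion and SLAM family had 4 genes that rose and 5 that fell among 12 tested, with a median of -0.09, and with median scaling 1 rose and 5 fell (median -0.26). Alcam, an adhesion molecule that binds CD6 on T cells, rose by 1.29 ± 0.06 (0.76 as the mean of its probes), while F11r, a junctional adhesion molecule, and Slamf9 fell by 1.64 ± 0.07 and 1.06 ± 0.08 (F11r -0.97 with normexp). Icam1, the ligand of the integrin LFA-1, fell from 0.22 and 0.14 in Ctrl to -0.64 and -0.57 with Torin, by 0.79 ± 0.11. Of the CD40 signalling genes all 24 were tested: 8 rose and 6 fell, with a median of -0.01. Tnfaip3, the NF-kB inhibitor A20, rose from 1.45 and 1.39 to 3.19 and 3.12, by 1.73 ± 0.07, Relb by 0.97 and the inhibitor gene Nfkbie by 0.80. Traf3, the adaptor that restrains CD40 signalling, fell by 0.56 and Map3k14, the kinase NIK, by 0.67, though the mean over the Map3k14 probes did not pass (-0.31, adjusted p = 0.138). With a 75th percentile over the probes above background on all 8 arrays, 11 of the 24 rose and 2 fell, and with median scaling 4 rose and 6 fell.

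Interferon and JAK-STAT genes, through which Cd274 is induced by interferons, had 4 that rose and 9 that fell among 22 tested, with a median of -0.15. Irf7, an interferon regulatory factor, fell from 3.51 and 3.59 in Ctrl to 2.67 and 2.62 with Torin, by 0.90 ± 0.12, and Irf9 fell by 0.58. Socs3, a feedback inhibitor of cytokine signalling, rose by 1.00 ± 0.06 and the interferon receptor gene Ifnar2 by 0.57. Quantile normalization gave 8 that rose and 7 that fell in this list, and median scaling 3 and 11. Of the genes that act on turnover of the members at the surface, 1 of 14 rose and 7 fell, with a median of -0.20. Cmtm6, which keeps PD-L1 at the cell surface, fell by 0.35 ± 0.07 (limma, adjusted p = 0.00866; 0.0551 with no filter, and a value of -0.21 with scaling to the probes bright on every array). With a 75th percentile over the probes above background on all 8 arrays the count was 3 that rose and 2 that fell.

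In the list of dendritic cell maturation and migration, 7 of 14 genes were tested: 4 rose and 1 fell, with a median of 0.52 beside -0.10 over all genes. Marcks, an actin-binding substrate of protein kinase C, rose from -1.50 and -1.54 in Ctrl to 0.57 and 0.34 with Torin, by 1.98 ± 0.09. Relb, also in the CD40 list, and Cflar rose by 0.97 and 0.58 (Cflar 0.87 as the mean of its probes), while Lamp3, a marker of mature dendritic cells, fell from 6.53 and 6.60 to 5.81 and 5.82, by 0.75 ± 0.05. Ccr7, the homing receptor of mature dendritic cells, was not well above background on any array. Of the MHC class II and peptide loading genes, 3 rose and 10 fell among 15 tested, with a median of -0.28. This list also holds genes of MHC class I and its peptide loading, Tap1 among them, so its counts are not those of class II alone. H2-DMb1 and H2-Oa, among the genes called, were not well above background on all 4 arrays. H2-Eb1, a class II beta chain, rose from 0.25 and 0.33 to 1.90 and 1.93, by 1.63 ± 0.07, and the protease Ctss rose by 0.59, while H2-DMa, a peptide loading chain, fell by 1.37 ± 0.09, the invariant chain Cd74 by 0.56 and the peptide transporter Tap1 by 0.39. H2-DMa had -0.90 with normexp and Tap1 -0.25 with scaling to the probes bright on every array. With quantile normalization 3 rose and 5 fell.

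**Figure D5:**
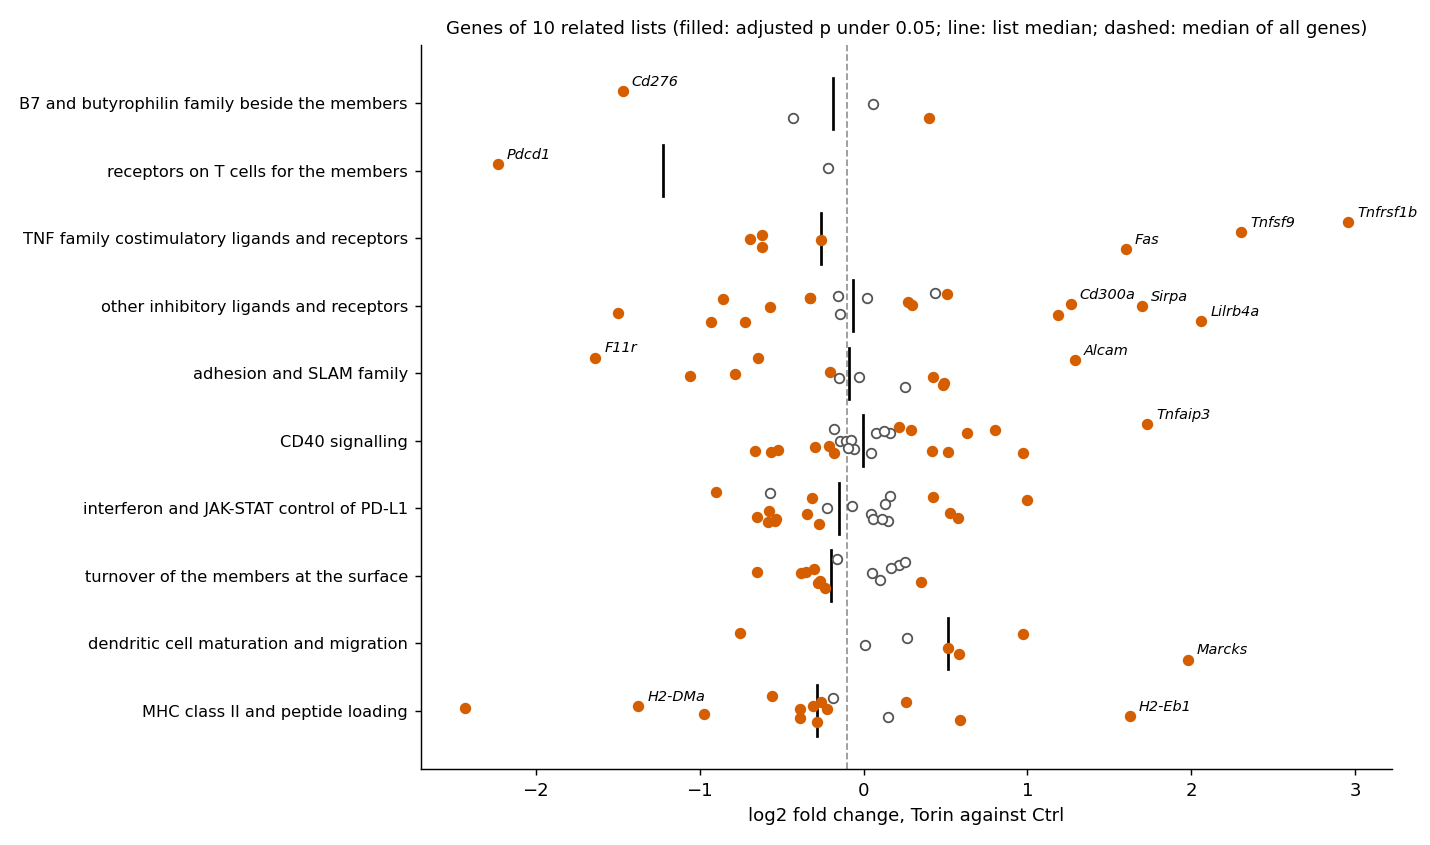
Each point is 1 tested gene of a list at its log2 fold change Torin against Ctrl, filled where adjusted p was under 0.05; the vertical position within a list carries no value. Black lines mark list medians, the dashed line marks the median of all genes at -0.10, and names are given to genes beyond 1.2 log2 units that the rule for named genes covers. Called genes lie on both sides of the dashed line in most lists, and Tnfrsf1b at 2.96 and Tnfsf9 at 2.31 lie farthest to the right.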

How the data were processed

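Per the file headers, the scanner files hold a processed signal, a background-subtracted intensity from Agilent Feature Extraction 10.7.1.1. The value matrix deposited by the authors is in log2 units: it equals the log2 processed signal less the array's 75th percentile over probes and less the probe's median, within 0.01 for 100% of 56282 probes on all arrays. Its column medians were -0.11 and -0.08 in Ctrl, -0.05 and -0.09 in IR, 0.10 and 0.10 in TAM and 0.17 and 0.08 in Torin.

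Here replicate spots were averaged, 323 probes with outlier marks were dropped, and log2 signals were scaled to each array's 75th percentile over probes. The filter kept the 27562 probes that Feature Extraction marked well above background in both replicates of any group, and the brightest probe of a gene was used, 21528 genes. Of 56605 probes, 32994 matched a RefSeq accession and 23611 did not. The headers name build mm9 and the names are those of GRCm38.p6, so promoter sequences were matched by symbol, for 4 of the 7 members; none was used for Cd83, Cd86 and Cd40.

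All 8 arrays entered a single limma 3.58.1 fit in R 4.3.3, modelled as group means with eBayes and 4 residual degrees of freedom; p-values are two-sided, adjusted by Benjamini-Hochberg over all genes, and called under 0.05. No exact test of 2 arrays against 2 can go below 0.333. The fit was also run on simulated data for Torin against Ctrl, with 200 of 21528 genes changed. It recovered 34%, 72%, 94% and 94% of changes of 0.5, 1, 2 and 4 log2 units (50 each). In the real comparison 10642 genes were called, so the adjustment was less strict there and these shares do not carry over to it. Precision is limited by the number of arrays. Replicate numbers were not treated as pairs in this fit, and the labels do not say whether same-numbered samples were handled together.

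The members and lists were chosen with earlier results of these data known. Whether the 75th percentile is taken over probes, spots or probes without outlier marks was settled after results under all 3 had been seen, by the match with the authors' values; the Cd40 call with Torin has adjusted p = 0.0403, 0.053 and 0.0416 in these. Named genes are the members, the 3 genes nearest to each called member in profile, and up to 3 called genes per list, direction and comparison with the largest change and signal above background on all arrays compared; some are left out for length or are not reported here, and list genes named only as not above background were chosen after their values were seen. Torin1 was not compared with the flavonols because the doses differ. Alternatives covered background correction, scaling, filter, probe choice, samples in the fit, variance model, the replicate block, the authors' values and each array left out.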

Additional observations from a re-analysis of the deposited data

Results flagged for a closer look

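Pdcd1lg2, which did not pass the filter and was not tested in the comparisons reported, gave a signal well above background on TAM replicate 2 alone, at 0.26 (log2 above the array's 75th percentile), where the control arrays read -6.03 and -5.95 and TAM replicate 1 read -3.62. The replicate did not repeat it, and its cause was not tested.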

How the results depend on the processing

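The rises of Cd83 and Cd274 with Torin passed in all 22 alternatives (3.88 to 4.24 and 1.76 to 2.14). Depending on the setting, the members called with IR were 0 with median scaling, with no filter, in the fit of only the groups compared and with the replicate block, and 0 to 1 without single arrays. Between IR and TAM they were 0 with median scaling, in the fit of only the groups compared and with the replicate block, 4 with no filter, and 0 to 1 without single arrays; with TAM they were 2 with no filter. The members gained there are Cd86, Icosl and Pdcd1lg2, none of them well above background on both arrays of a group. Of the 46 list genes named by the rule with Torin, 34 passed in every alternative run for them and 0 reversed.

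Genes called with IR, 117 in all, were 13 with median scaling, 6 with no filter, 376 with only probes bright on every array, 0 in the fit of only the groups compared (3123 at unadjusted p under 0.05 in limma), 436 with trend and robust eBayes, 4 with the replicate block and 5 to 75 without single arrays. With TAM, 17 in all, they were 8 with normexp, 12526 with no filter, 0 with only probes bright on every array (2635 at unadjusted p under 0.05 in limma), 88 with trend and robust eBayes, 11 with the replicate block, 0 without the first 48 spot rows (2742 at unadjusted p under 0.05; added after seeing the data, as were the percentiles over spots and over probes without outlier marks) and 0 to 146 without single arrays. Between IR and TAM, 178 in all, they were 100 with normexp, 113 with median scaling, 14021 with no filter, 1 in the fit of only the groups compared, 270 with trend and robust eBayes, 43 with the replicate block, 111 without the first 48 rows and 39 to 272 without single arrays. The higher share of the IR against TAM calls was 70.8%, and 57.5% with median scaling; with TAM it was 88.2%, and 71.4% with quantile normalization.

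Values near 0 changed sign without passing. Cd274 with TAM was -0.041 with normexp and -0.014 with median scaling, and -0.030 to 0.11 without single arrays. Cd80 with TAM was 0.035 with quantile normalization, 0.027 with the percentile over probes bright on every array, 0.0049 over spots and 0.016 over probes without outlier marks, and -0.058 to 0.036 without single arrays. Cd80 with Torin was 0.10, 0.13, 0.035 and 0.009 under the same 4 settings, 0.045 as the mean of its probes, and -0.053 to 0.041 without single arrays. Cd80 with IR was -0.065 to 0.028 without single arrays. The cause of these changes was not tested. Same-numbered replicates had correlations of deviations of -0.13 to 0.08 over 6 pairs of groups.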
